A study of Homo sapiens with 4 samples.

Results

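Interferon-stimulated genes outside the IFIT family were followed in cells of the human osteosarcoma line SJSA-1, with and without knockdown of ZNF217, a zinc finger gene. They are a list of 44 genes given by name, without a cut-off on values, and all 44 were found among the 20024 genes of the deposited table. They were sorted by what their proteins do into 23 effectors, which act on viruses or infected cells, 10 sensors and enzymes of foreign or double-stranded RNA or DNA, and 11 signalling members, which carry or tune the response. RNA-seq libraries were made from SJSA-1 cells of genotype ZNF217 knockdown and from SJSA-1 cells of genotype control, with 2 libraries each. The sources used here do not state the knockdown reagent, its duration or what the control cells received. Both groups come from 1 cell line. No label ties the replicates to cultures of their own, so a p here covers no more than library-to-library spread, possibly technical.

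Type I interferons bind the receptor pair IFNAR1 and IFNAR2, whose kinases JAK1 and TYK2 phosphorylate STAT proteins, among them STAT2. Activated STAT2 joins IRF9 in a complex that binds the interferon-stimulated response element in the promoters of its targets. Many targets are themselves sensors or factors of the pathway, so that a response can feed itself. IRF1 and other factors can switch on a part of the same genes without added interferon.

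The libraries held 24428774 and 23217521 counts in knockdown, against 21466327 and 24487126 in control. Levels are given as CPM, read counts scaled to a library size that TMM factors adjust for composition, and, where genes are compared with each other, as TPM, which divides by gene length. ZNF217, the targeted gene, was at 37.6 and 31.9 CPM in knockdown, against 66.2 and 73.4 CPM in control (edgeR log2 fold change −1.01, standard error 0.20, adjusted p = 0.207, and DESeq2 adjusted p = 0.00911). The control libraries differed from each other with a common coefficient of variation of 0.39, against 0.0776 for the knockdown pair. The osteoblast lineage marker SPARC was abundant in all 4 libraries. CDK4, a gene amplified in this line, was at 331 and 367 CPM in knockdown, against 349 and 184 CPM in control. MDM2, also amplified in it, was at 46.3 and 38.9 CPM in knockdown, against 41 and 30.4 CPM in control. The epithelial keratins KRT8 and KRT18 were abundant too, while EPCAM and CDH1 had at most 21 counts in any library. KRT8 was at 768 and 796 CPM in knockdown, against 845 and 769 CPM in control. KRT18 was at 1105 and 1182 CPM in knockdown, against 1224 and 936 CPM in control. ALPL and COL1A2, also osteoblast markers, had at most 4 counts in any library. The osteoblast markers RUNX2 and COL1A1 lay between 3.51 and 17.4 CPM. Of 14 blood cell markers the defining leukocyte gene PTPRC had 1 and 0 counts in knockdown, against 2 and 0 in control, and HBB and TYROBP had 0 in every library. Of the 5 blood markers tested 2 lay higher and 3 lower in knockdown. ITGAM, higher, passed the low-count filter through the knockdown libraries alone and CSF1R, lower, through the controls alone, so both directions were fixed. The summed level of all 14 markers was 58.6 and 59.3 CPM in knockdown, against 83.4 and 85.5 CPM in control. Most of it was CD68, at 49.3 and 51.2 CPM in knockdown, against 78.3 and 76.1 CPM in control.

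Most of these interferon-stimulated genes were higher in ZNF217 knockdown cells. The list was chosen with earlier results of these data known, so its counts describe it and are no independent test. Of the 44 genes 41 had enough counts to be tested. Both knockdown libraries lay above both controls for 30 of them and below both for 0, beside 25.4% and 22.9% of all tested genes. The median log2 fold change of the 41 was 1.06, against −0.01 over all 12965 tested genes, and 22 of them had a log2 fold change of 1 or more. In bulk RNA, more cells that express a gene and more RNA of it per cell cannot be told apart.

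No member passed the adjusted threshold of 0.05 in edgeR's quasi-likelihood test with Benjamini-Hochberg adjustment over all genes, where 0% of tested genes were called higher and 0% lower. At an unadjusted p under 0.05 there were 23 higher members and 0 lower ones, beside 6.61% and 6.42% of all tested genes. DESeq2 called 15 members higher and 0 lower at an adjusted p under 0.05, beside 1.64% and 2% of all tested genes. With the replicate number as an edgeR block, though no label pairs the libraries, 14 members were called higher and 0 lower, beside 1.23% and 0.956% of all tested genes. IFI44L and CMPK2 passed the low-count filter through the knockdown libraries alone, so they had to lie higher there. The plot of levels by library shows every member, the untested ones included.

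**Figure D1:**
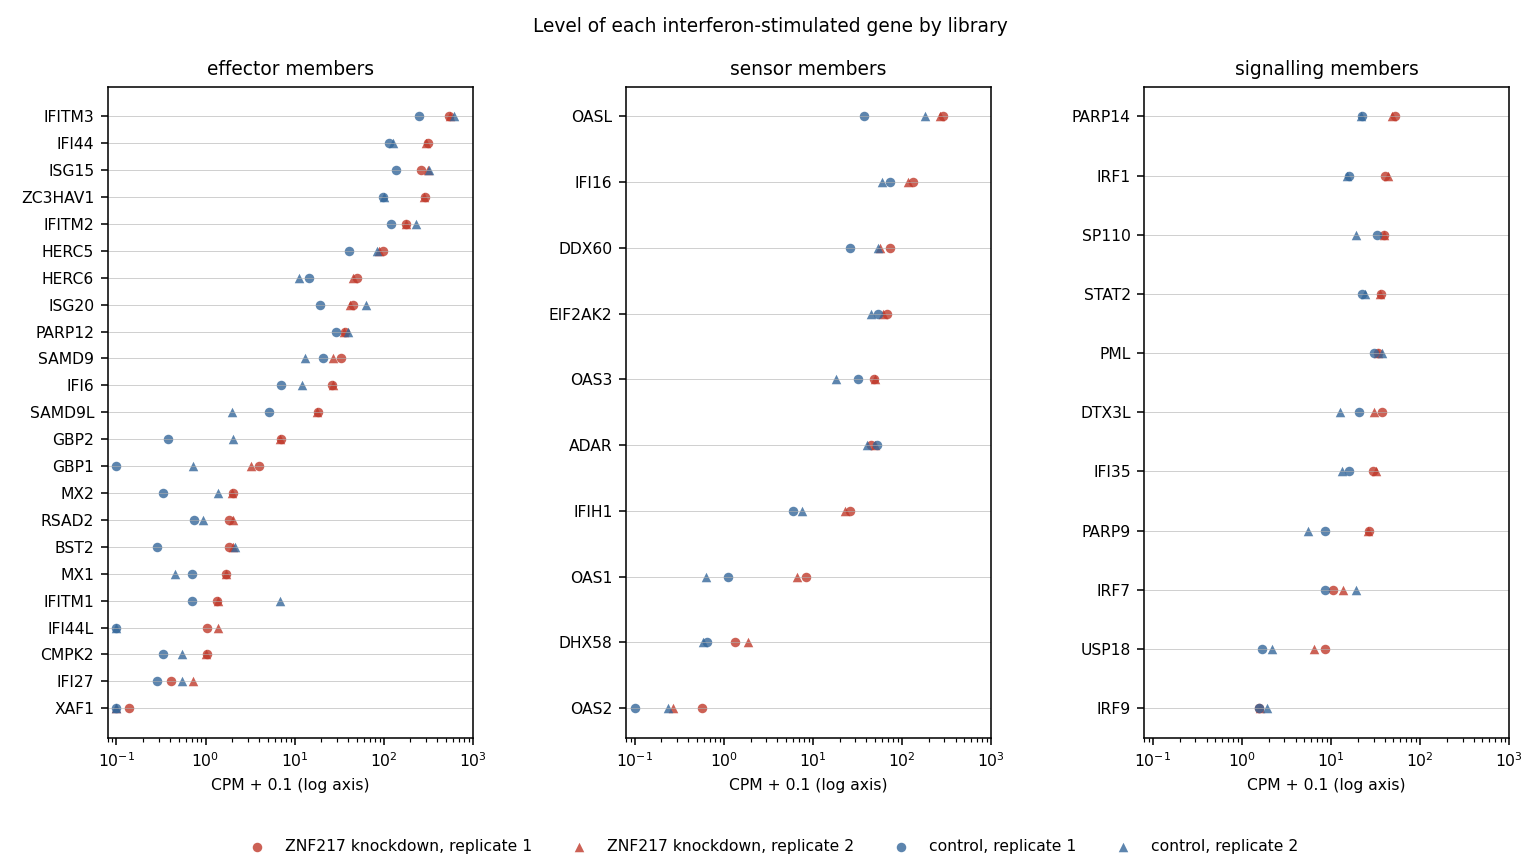
CPM plus 0.1 (log axis) of the 44 interferon-stimulated genes in each library, with knockdown libraries in red and controls in blue, sorted within each role by the knockdown mean. For 30 of the 41 tested genes both red points lie right of both blue points, while for ISG15, the IFITM genes, ISG20 and IRF7 control replicate 2 (blue triangle) lies at or beyond the knockdown libraries.

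The promoters of members with large differences are shown first, with ISG15 added after its values were seen, as a member with a high level and overlapping libraries. RefSeq promoters on GRCh38.p14, from 250 bases before to 50 bases after the annotated start, were matched for 35 of the 44 members. USP18, the largest difference among signalling members, is named only. The windows printed are IFI44L (chr1:78620198-78620497, plus strand), GBP1 (chr1:89065159-89065458, minus strand), ISG15 (chr1:1013247-1013546, plus strand), OAS1 (chr12:112906712-112907011, plus strand), IFIH1 (chr2:162318635-162318934, minus strand) and PARP9 (chr3:122564735-122565034, minus strand). Capitals mark matches, on either strand, to the core of the interferon-stimulated response element, GAAA repeated after a spacer of 2 bases, or to the gamma-activated site TTCNNNGAA, which STAT pairs bind. In ISG15 and in IFIH1 a pair of core matches overlaps, so they stand as a single run of capitals.
IFI44L: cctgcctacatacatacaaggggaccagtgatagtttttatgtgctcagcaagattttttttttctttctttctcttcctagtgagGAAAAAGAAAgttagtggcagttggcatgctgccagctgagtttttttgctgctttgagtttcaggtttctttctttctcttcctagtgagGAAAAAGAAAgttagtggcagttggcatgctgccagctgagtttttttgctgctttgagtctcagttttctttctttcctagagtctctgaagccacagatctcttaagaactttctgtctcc
GBP1: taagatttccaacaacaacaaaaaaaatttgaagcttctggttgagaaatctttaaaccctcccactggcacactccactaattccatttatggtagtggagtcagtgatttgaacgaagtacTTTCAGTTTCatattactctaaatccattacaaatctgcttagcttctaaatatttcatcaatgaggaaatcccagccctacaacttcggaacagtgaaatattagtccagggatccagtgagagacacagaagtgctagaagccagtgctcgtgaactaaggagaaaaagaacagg
ISG15: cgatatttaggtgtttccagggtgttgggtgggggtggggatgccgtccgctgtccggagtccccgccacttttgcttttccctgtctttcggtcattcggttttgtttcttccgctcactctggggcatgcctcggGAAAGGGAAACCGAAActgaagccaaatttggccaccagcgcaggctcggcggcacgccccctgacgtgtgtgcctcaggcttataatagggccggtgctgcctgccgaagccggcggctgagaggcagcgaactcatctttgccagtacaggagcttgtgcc
OAS1: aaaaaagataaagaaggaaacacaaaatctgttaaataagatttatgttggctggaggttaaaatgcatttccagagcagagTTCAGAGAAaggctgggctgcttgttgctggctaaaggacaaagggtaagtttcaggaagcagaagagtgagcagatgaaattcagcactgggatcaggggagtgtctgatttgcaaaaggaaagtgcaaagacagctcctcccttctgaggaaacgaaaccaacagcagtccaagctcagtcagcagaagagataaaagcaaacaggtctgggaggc
IFIH1: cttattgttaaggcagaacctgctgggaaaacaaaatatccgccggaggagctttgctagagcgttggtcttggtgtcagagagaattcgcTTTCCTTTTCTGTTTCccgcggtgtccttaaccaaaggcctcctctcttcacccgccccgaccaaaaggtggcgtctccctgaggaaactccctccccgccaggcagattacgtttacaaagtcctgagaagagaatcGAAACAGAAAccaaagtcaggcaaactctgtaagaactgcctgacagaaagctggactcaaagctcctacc
PARP9: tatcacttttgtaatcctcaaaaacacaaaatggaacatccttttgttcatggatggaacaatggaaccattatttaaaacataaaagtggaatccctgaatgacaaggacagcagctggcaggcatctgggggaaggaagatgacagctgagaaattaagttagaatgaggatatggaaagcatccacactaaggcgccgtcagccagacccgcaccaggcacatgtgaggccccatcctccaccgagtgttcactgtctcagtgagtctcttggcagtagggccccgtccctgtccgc

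The response element core was found in 20 of the 35 member promoters (57.1%), against 3.57% of all 35116 promoters in the table. By role it was in 14 of 20 effectors, 4 of 7 sensors and 2 of 8 signalling members. The gamma-activated site was found in 10 of the 35 (28.6%), against 7.66% of all promoters. IFI44L holds 2 copies of the core at −164 and −73 bases, and GBP1 has 1 at −127. ISG15 has 2 overlapping matches at −113 and −107. IFIH1 has 3, at −159, −153 and −21, while the OAS1 window has the gamma-activated letters at −168 and no core match. The PARP9 window holds neither. The 19 tested members with a core match had a median log2 fold change of 0.85, and 13 lay higher in both knockdown libraries. The 14 tested members with a promoter but without the core had a median of 1.37, and 12 lay higher. Of all tested genes 25.4% lay higher without overlap. A match is a description of letters, and no match says only that these letters are not in this window.

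**Figure D2:**
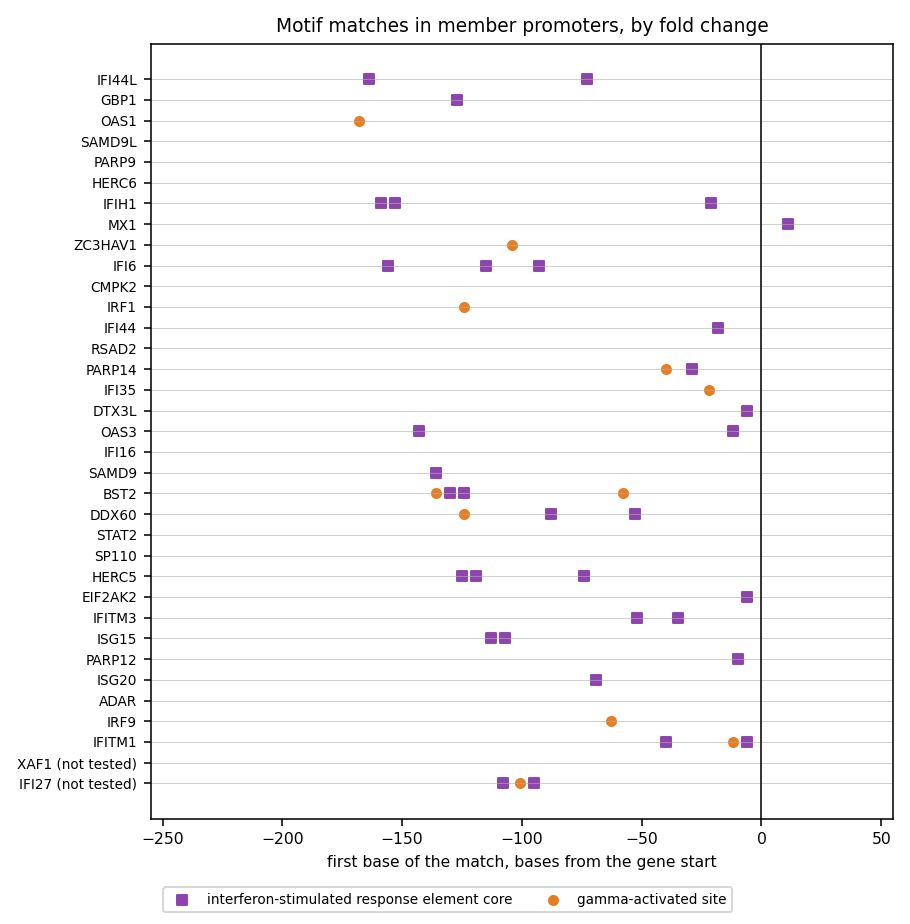
Position of each match to the response element core (purple squares) and the gamma-activated site (orange circles) in the promoters of 35 members, in bases from the annotated start, with genes sorted from the largest edgeR log2 fold change at the top to the smallest, then those not tested. Matches lie from top to bottom of the order, with OAS1, SAMD9L, PARP9 and HERC6 near the top without a core match and ISG15, IFITM3 and IFITM1 near the bottom with 2 each.

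For the 21 tested effectors the log2 fold changes had a median of 1.32. Both knockdown libraries lay above both controls for 14 of them, beside 25.4% of all tested genes, and overlapped with the controls for 7. The effectors with the smallest p were ZC3HAV1, HERC6, IFI44, IFI44L, SAMD9L and IFI6. ZC3HAV1, the zinc finger antiviral protein that binds CpG-rich viral RNA, was at 291 and 283 CPM in knockdown, against 99.4 and 102 CPM in control. Its difference was 2.85-fold, with the smallest standard error among the effectors (log2 fold change 1.51, standard error 0.16, edgeR adjusted p = 0.144, DESeq2 adjusted p = 1.63e-07). IFI44, an interferon-induced cytoplasmic protein, was at 317 and 299 CPM in knockdown, against 114 and 129 CPM in control, which is 2.54-fold (edgeR adjusted p = 0.146, DESeq2 adjusted p = 1.53e-05). HERC6, a HECT-type ubiquitin ligase gene, was at 50.3 and 44.7 CPM in knockdown, against 14.5 and 11.2 CPM in control, a log2 fold change of 1.89 with a standard error of 0.24 (edgeR adjusted p = 0.146). For these 3 genes the gap between the groups was larger than the spread within either group.

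SAMD9L, an antiviral and growth-restraining protein, was at 18 and 17.6 CPM in knockdown, against 5.04 and 1.87 CPM in control (log2 fold change 2.36, standard error 0.52, edgeR adjusted p = 0.229, DESeq2 adjusted p = 0.000551). IFI6, a small protein of internal membranes, was at 25.9 and 26.9 CPM in knockdown, against 6.94 and 12 CPM in control (log2 fold change 1.47, edgeR adjusted p = 0.236). In both the controls differed from each other more than the knockdown libraries did, and SAMD9L had a log2 fold change of 1.82 against control replicate 1 alone and 3.23 against control replicate 2 alone. IFI44L, the neighbour and relative of IFI44, had 24 and 31 counts in knockdown, against 0 and 0 in control. Against a floor of 3 counts per control library it was at least 8.18-fold higher, and its level was low, at 0.937 and 1.29 CPM.

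Guanylate-binding proteins, GTPases that attack vacuoles and are known as interferon gamma targets, also lay higher. GBP1 had 99 and 75 counts in knockdown, against 0 and 14 in control, a log2 fold change of 3.45 with a standard error of 1.17 (edgeR adjusted p = 0.339, DESeq2 adjusted p = 0.0637). Against control replicate 2 alone its log2 fold change was 2.47, and control replicate 1, with 0 counts, gives no fold. GBP2 was at 6.91 and 6.8 CPM in knockdown, against 0.277 and 1.92 CPM in control (log2 fold change 2.63, edgeR adjusted p = 0.319, DESeq2 adjusted p = 0.0372). The GBP2 value also depended on the control, with a log2 fold change of 1.82 against control replicate 2 alone and one of 4.60 against control replicate 1 alone. About 10.2% of the 50-base windows of GBP2 transcripts also occur in transcripts of other genes, so part of its reads could be shared.

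The classical antiviral effectors MX1, MX2, RSAD2 and CMPK2 were scarce. MX1, a GTPase that traps viral nucleoproteins, was at 1.6 and 1.58 CPM in knockdown, against 0.601 and 0.357 CPM in control, and RSAD2, viperin, at 1.76 and 1.96 CPM, against 0.647 and 0.848 CPM in control. MX2 was at 1.95 and 1.88 CPM in knockdown, against 0.231 and 1.29 CPM in control. CMPK2, a mitochondrial nucleotide kinase, had 24 and 22 counts in knockdown, against 5 and 10 in control. All 4 lay higher in both knockdown libraries, beside 25.4% of all tested genes. CMPK2 had to, since it passed the low-count filter through the knockdown libraries alone. The 4 log2 fold changes ran from 1.31 (RSAD2) to 1.72 (MX1), with edgeR adjusted p values of 0.304 to 0.539 and DESeq2 adjusted p values of 0.407 to 0.672. SAMD9, the relative of SAMD9L, had a log2 fold change of 0.85 and HERC5, the main ligase for ISG15, one of 0.60, both with groups that did not overlap. HERC5 rested on control replicate 1, with a log2 fold change of 1.21 against it alone and 0.16 against control replicate 2 alone. For MX2 the same values were 3.02 and 0.55. XAF1, a cell death factor, had 1 count in all, and IFI27 had 8 and 15 counts in knockdown, against 4 and 10 in control, too few to test.

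Some of the most abundant effectors had overlapping libraries. By length, IFITM3 stood highest, at 1542 ± 8.2 TPM in knockdown and 1112 ± 529 TPM in control, followed by ISG15, at 994 ± 104 TPM in knockdown and 725 ± 330 TPM in control (SD, n = 2 each). IFITM3, a membrane protein that blocks virus entry, was at 538 and 557 CPM in knockdown, against 252 and 615 CPM in control. ISG15, the ubiquitin-like modifier, was at 261 and 316 CPM in knockdown, against 137 and 324 CPM in control. In CPM, control replicate 2 lay above both knockdown libraries in each gene and control replicate 1 far below. On the TPM scale control replicate 1 was again lowest, while control replicate 2 changed its place. IFITM3 was at 1548 and 1536 TPM in knockdown, against 738 and 1486 TPM in control, so there its groups did not overlap. ISG15 was at 921 and 1067 TPM in knockdown, against 492 and 959 TPM in control, and still overlapped. Their edgeR log2 fold changes were 0.34 and 0.32, within their standard errors of 0.42 and 0.42 (adjusted p = 0.765 and 0.772). Against control replicate 1 alone they were 1.12 and 1.07, and against control replicate 2 alone −0.18 and −0.18.

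IFITM1 was the effector with a negative fold change, at 1.25 and 1.29 CPM in knockdown, against 0.601 and 6.69 CPM in control (log2 fold change −1.52, standard error 1.07, edgeR adjusted p = 0.584). Its sign rested on control replicate 2, since the log2 fold change was 1.07 without it. The values of IFITM1, IFITM2 and IFITM3 are uncertain, because 32%, 34.3% and 35.2% of their 50-base transcript windows also occur in other genes, for IFITM1 and IFITM2 mostly in each other. The other overlapping effectors were BST2, or tetherin, the exonuclease ISG20, PARP12 and IFITM2, with log2 fold changes of 0.72, 0.07, 0.09 and 0.01.

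**Figure D3:**
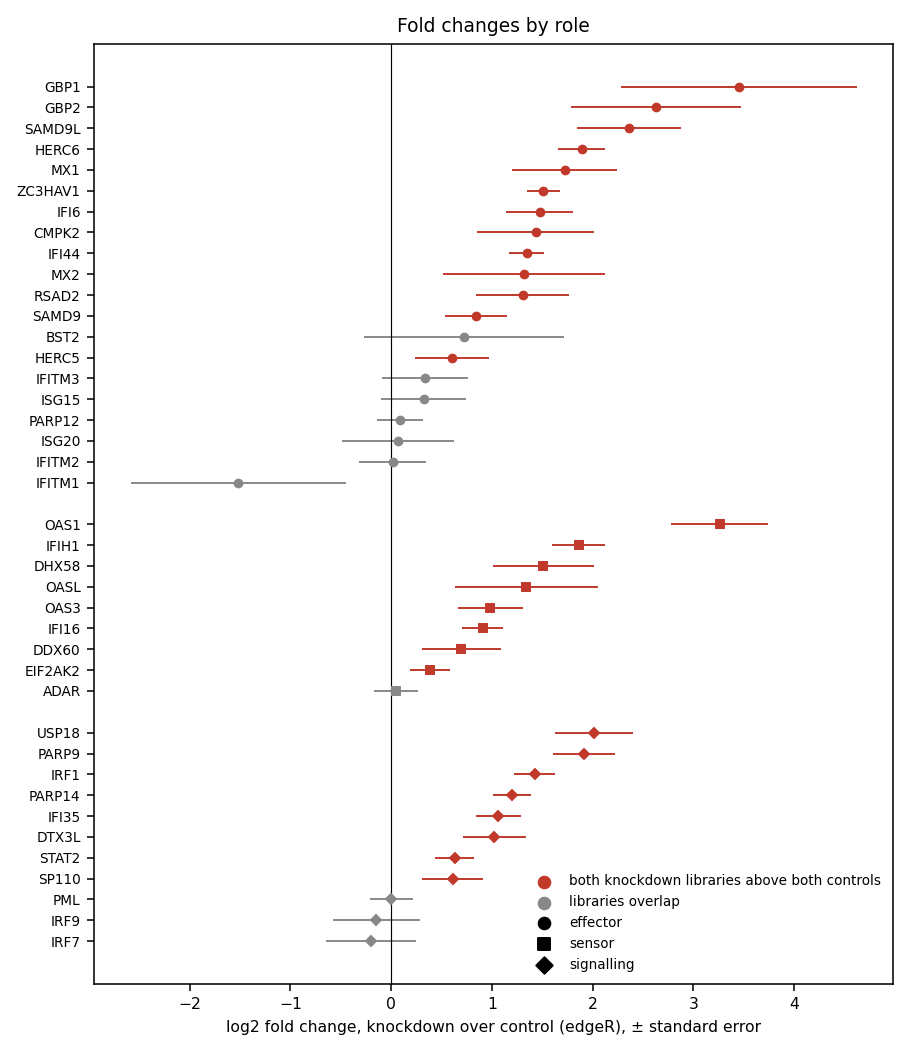
edgeR log2 fold change of knockdown over control with its standard error for 40 tested members, by role, in red where both knockdown libraries lie above both controls and in grey where the libraries overlap. IFI44L is left out because both controls are at 0. The red members span from 0.39 (EIF2AK2) to 3.45 (GBP1), and IFITM1, IRF7 and IRF9 are the members left of 0, all grey.

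The 9 tested sensors had log2 fold changes with a median of 0.98. Both knockdown libraries lay above both controls for 8 of them, beside 25.4% of all tested genes. OAS1, which makes the 2-5A messenger that activates RNase L, was at 8.39 and 6.55 CPM in knockdown, against 1.02 and 0.535 CPM in control. That was 9.62-fold, the largest ratio among the tested sensors (log2 fold change 3.26, standard error 0.48, edgeR adjusted p = 0.16, DESeq2 adjusted p = 6.74e-06). IFIH1, or MDA5, which detects long double-stranded RNA, was at 25.7 and 23.1 CPM in knockdown, against 5.87 and 7.54 CPM in control (log2 fold change 1.86, standard error 0.26, edgeR adjusted p = 0.16, DESeq2 adjusted p = 1.76e-05). IFI16, a DNA sensor, was at 133 and 118 CPM in knockdown, against 74.3 and 59.7 CPM in control (log2 fold change 0.91, edgeR adjusted p = 0.234, DESeq2 adjusted p = 0.0337). In these 3 genes both controls lay well below the knockdown pair, and the promoter windows of OAS1 and IFIH1 are those printed above.

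Among the other sensors, OAS3 was at 49.1 and 50.3 CPM in knockdown, against 32.4 and 17.9 CPM in control (log2 fold change 0.98, edgeR adjusted p = 0.331). DHX58, or LGP2, a helper of MDA5, had 32 and 42 counts in knockdown, against 12 and 11 in control (log2 fold change 1.51, edgeR adjusted p = 0.334). EIF2AK2, the kinase PKR that halts translation on double-stranded RNA, was at 68.6 and 60.6 CPM in knockdown, against 54.1 and 44.7 CPM in control, the smallest difference among those that did not overlap (log2 fold change 0.39, standard error 0.20, edgeR adjusted p = 0.478). OASL, an OAS relative without 2-5A synthesis that boosts RIG-I, was the most abundant sensor, at 256 ± 20.8 TPM in knockdown and 89.5 ± 75.7 TPM in control (SD, n = 2 each). Its CPM was 287 and 267 in knockdown, against 37.5 and 181 in control, and the log2 fold change was 2.88 against control replicate 1 alone and 0.61 against control replicate 2 alone. DDX60, a helicase-like helper of RNA sensing, had a log2 fold change of 0.70, with 1.32 against control replicate 1 alone and 0.25 against control replicate 2 alone. ADAR, the enzyme that edits double-stranded RNA and so hides it from sensors, overlapped, at 45.4 and 50.4 CPM in knockdown and 52.3 and 40.1 CPM in control. OAS2 had 12 and 4 counts in knockdown, against 0 and 3 in control, too few to test.

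The 11 signalling members, all tested, had log2 fold changes with a median of 1.03. Both knockdown libraries lay above both controls for 8 of them, beside 25.4% of all tested genes. IRF1, a transcription factor that binds response elements without STAT proteins, was at 39.9 and 43.5 CPM in knockdown, against 16 and 15.1 CPM in control (log2 fold change 1.42, standard error 0.20, edgeR adjusted p = 0.16, DESeq2 adjusted p = 0.00012). Its controls lay close together, and the log2 fold change was 1.38 against control replicate 1 alone and 1.46 against control replicate 2 alone. STAT2 was at 36.3 and 35.4 CPM in knockdown, against 22.1 and 24.2 CPM in control, a log2 fold change of 0.63 with a standard error of 0.20 (edgeR adjusted p = 0.313, DESeq2 adjusted p = 0.287). IRF9, the DNA-binding partner of STAT2, overlapped, at 1.44 and 1.5 CPM in knockdown and 1.43 and 1.83 CPM in control, and IRF7, the amplifier of interferon gene transcription, also overlapped, at 10.3 and 13.4 CPM in knockdown and 8.42 and 18.8 CPM in control. The log2 fold changes of IRF7 and IRF9 were −0.20 and −0.15, within their standard errors of 0.45 and 0.43, and against control replicate 1 alone they were 0.49 and 0.037. Windows shared with other genes made up 22% of IRF1, mostly with C5orf56, and 43.8% of IRF9, so these levels are less certain than those of STAT2.

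USP18, which removes ISG15 from proteins and blocks the receptor as a feedback inhibitor, was at 8.43 and 6.38 CPM in knockdown, against 1.57 and 2.1 CPM in control (log2 fold change 2.01, standard error 0.39, edgeR adjusted p = 0.202, DESeq2 adjusted p = 0.00495). It shares 23.4% of its windows with other genes, chiefly USP41, which itself had 6 and 1 counts in knockdown, against 0 and 3 in control. PARP9 and DTX3L, which form an ADP-ribosylating ubiquitin ligase pair that enhances interferon signalling, both lay higher. PARP9 was at 26.8 and 25.6 CPM in knockdown, against 8.46 and 5.4 CPM in control (log2 fold change 1.92, edgeR adjusted p = 0.16), and DTX3L at 36.8 and 30.5 CPM in knockdown, against 20.7 and 12.4 CPM in control (log2 fold change 1.03, edgeR adjusted p = 0.308). PARP14, a related ADP-ribosyltransferase, was at 52.4 and 48.5 CPM in knockdown, against 22.1 and 21.9 CPM in control (log2 fold change 1.20, standard error 0.19, edgeR adjusted p = 0.16, DESeq2 adjusted p = 0.00131). IFI35 was at 29.3 and 31.6 CPM in knockdown, against 15.9 and 13.2 CPM in control (log2 fold change 1.06, edgeR adjusted p = 0.227, DESeq2 adjusted p = 0.0249). SP110, a nuclear body protein, had a log2 fold change of 0.61 with 17.6% of windows shared, and PML, the scaffold of nuclear bodies, was at 33.9 and 33.9 CPM in knockdown and 30.1 and 37.7 CPM in control. The medians of the 3 roles differed by less than the range within each, and their difference was not tested.

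Each member was also set against the controls one at a time. Both knockdown libraries lay above control replicate 1 for 40 of the 41 tested members, beside 43.4% of all tested genes, and above control replicate 2 for 31, beside 46.8%. Control replicate 2 lay above control replicate 1 for 24 of the 41, beside 49.9% of all genes, and for 10 of the 11 members whose libraries overlapped. The exception among those 11 was ADAR, where control replicate 1 was the highest library. With control replicate 1 alone as the comparison the members' median was 1.32 on the log2 scale, and with control replicate 2 alone it was 1.12. For signalling members the same medians were 0.70 and 1.19. With a lone control, assumed to vary like the knockdown pair, edgeR called 34 members higher and 0 lower without control replicate 2 (18% and 16.6% of all tested genes), and 26 higher and 4 lower without control replicate 1 (27.9% and 28% of all tested genes). DESeq2 with a lone control called 28 members higher and 0 lower without control replicate 2 (9.43% and 9.62% of all tested genes), and 23 higher and 4 lower without control replicate 1 (18.9% and 20.6%). The 4 members that edgeR called lower were ISG20, IFITM1, IFITM2 and IRF7.

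**Figure D4:**
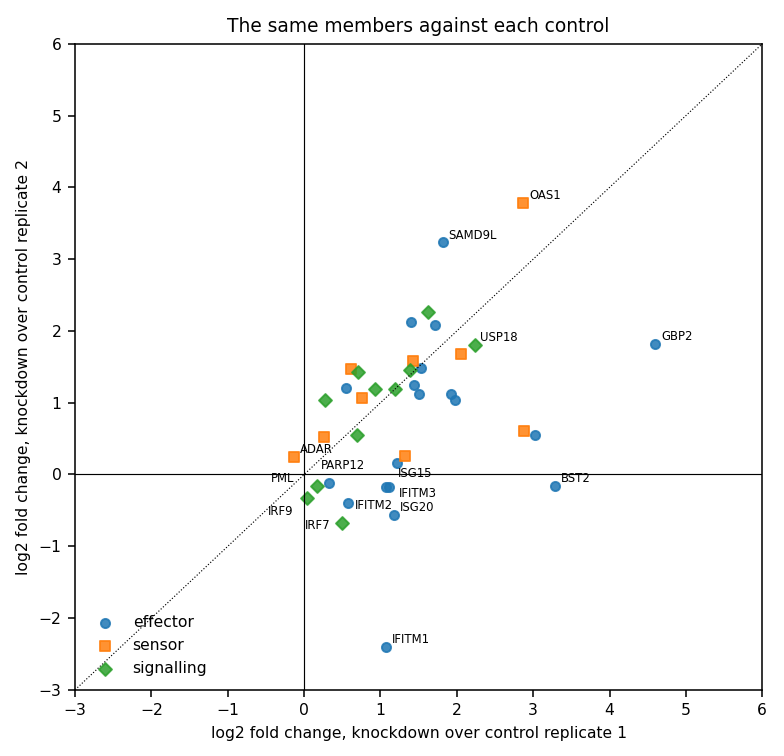
edgeR log2 fold change of knockdown over control replicate 1 alone (x axis) and over control replicate 2 alone (y axis) for 39 tested members, by role, with the dotted line marking equal values. IFI44L and GBP1 are left out because control replicate 1 has 0 counts of them. OAS1, SAMD9L and USP18 lie above 1.5 on both axes, while ISG15, ISG20, BST2 and the IFITM genes lie right of 0 and below 0.

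The pathway that feeds these genes was read from the same libraries. Interferon ligands were scarcely detected. Of 9 ligand genes IFNE had 10 and 11 counts in knockdown, against 6 and 3 in control, IFNL1 had 0 and 3 counts in knockdown, against 0 and 0 in control, IFNL2 had 0 and 0 in knockdown, against 1 and 0 in control, and the other 6 had 0 in every library, which allows up to 0.117 to 0.139 CPM (3 counts, counting error only). Of 6 receptor genes 2 lay higher and 1 lower without overlap, beside 25.4% and 22.9% of all tested genes. The receptors had a median log2 fold change of −0.26. Their smallest p values belonged to IFNGR2, at 82 and 84.3 CPM in knockdown, against 87.1 and 263 CPM in control, and IFNGR1, at 36.1 and 36.2 CPM in knockdown, against 28.1 and 31 CPM in control. The kinases, STAT and feedback genes had a median of 0.25 over 10 genes. Of these 3 lay higher and 2 lower without overlap, beside 25.4% and 22.9% of all tested genes. JAK1 was at 81.1 and 77.7 CPM in knockdown, against 120 and 142 CPM in control (log2 fold change −0.72, edgeR adjusted p = 0.262, DESeq2 adjusted p = 0.0877), and PIAS1, an inhibitor of STAT signalling, at 26 and 24.6 CPM in knockdown, against 35.7 and 39.9 CPM in control.

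Of 13 tested genes of nucleic acid sensing outside the members, 6 lay higher and 2 lower without overlap. This stands beside 25.4% and 22.9% of all tested genes. The median log2 fold change of the 13 was 0.20. SAMHD1, which depletes nucleotides, was at 64.4 and 61.8 CPM in knockdown, against 22.8 and 11.9 CPM in control, and DDX58, or RIG-I, at 175 and 166 CPM in knockdown, against 60.4 and 88 CPM in control. DESeq2 called both higher (adjusted p = 0.000146 and 0.00482), while the edgeR adjusted p values were 0.196 and 0.214. Interferon gamma responsive genes had 5 tested of 11, all 5 higher without overlap, beside 25.4% of all tested genes. Log2 fold changes ran from 0.14 (WARS1) to 2.37 (GBP5). GBP5, with 1 and 10 counts in control, passed the low-count filter through the knockdown libraries alone, so it had to lie higher. CXCL10 had a log2 fold change of 3.63 against control replicate 1 alone and 0.66 against control replicate 2 alone. Of the untested genes, CXCL9 had 0 counts and CIITA, HLA-DRA and CD74 at most 4 in any library. GBP4 and IDO1 had counts in knockdown only. Among the 5 tested the smallest p values belonged to the chemokine CXCL11 and the transcription factor IRF8. CXCL11 was at 17.5 and 14.5 CPM in knockdown, against 3.01 and 4.55 CPM in control. IRF8 was at 10.4 and 9.63 CPM in knockdown, against 2.64 and 4.86 CPM in control. The IFIT genes, which share the response element, had log2 fold changes from 0.63 (IFIT5) to 3.61 (IFIT3). Of these, 4 of 4 tested genes lay higher without overlap, beside 25.4% of all tested genes. IFIT3 was at 229 and 217 CPM in knockdown, against 20.2 and 16.2 CPM in control, and IFIT2 at 80.1 and 69.1 CPM in knockdown, against 14.2 and 9.68 CPM in control. All these values come from the contrast that also gave the members' values and share its 2 controls.

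**Figure D5:**
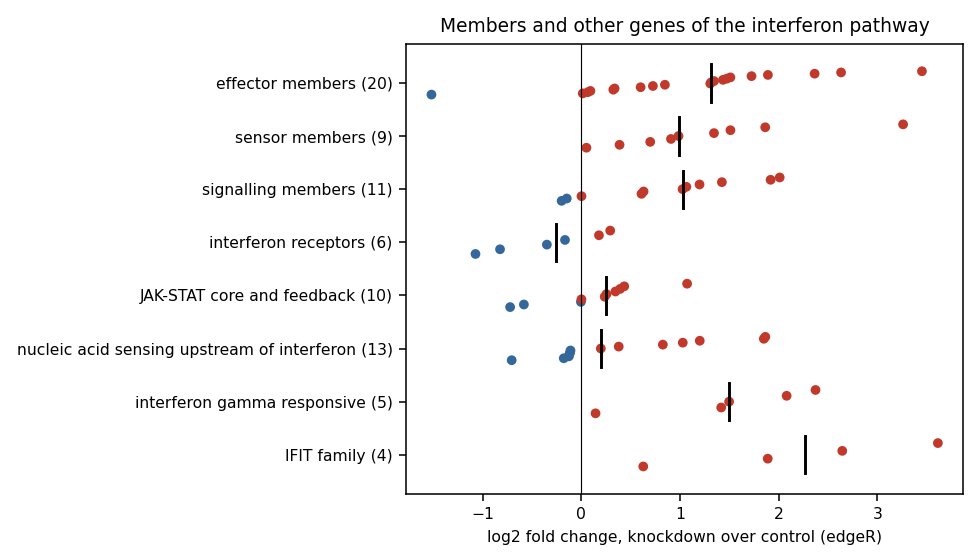
edgeR log2 fold change of each tested gene (points, red above 0 and blue below) and list median (black bars) for the members by role and for other genes of the interferon pathway, with the number of points in brackets. IFI44L is left out of the points and of the effector bar. With IFI44L counted, the medians of the roles lie from 0.98 to 1.32, while interferon receptors centre on −0.26 and the kinase, STAT and feedback genes on 0.25.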

How the data were processed

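Per the labels' protocols, total RNA of SJSA-1 cells was purified with a PureLink kit; a genomics core made the libraries. The submitters' processing notes name Trimmomatic, HISAT2, Subread and DESeq2 with GRCh38; the sources used here state no version, annotation or strand setting. The authors deposited whole read counts per gene and library. They also deposited a signal per library, count divided by gene length, whose columns sum to 10 times a TPM column; it was divided by 10 and is called TPM here. Their deposited mean normalized signal, log2 fold change, score (the Wald statistic), p-value and adjusted p-value, made with DESeq2 per the file headers, were not used.

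Counts of all 20024 genes entered edgeR 4.0.16 (R 4.3.3) with TMM scaling and its quasi-likelihood test, no covariate. The low-count filter (minimum count 10, minimum total 15) left 12965 genes. Tests were two-sided, adjusted by Benjamini-Hochberg over all tested genes at 0.05. The standard error is the log2 fold change over the root of its F statistic. DESeq2 1.42.0 and limma 3.58.1 were alternatives. With 2 libraries against 2 an exact permutation test cannot go below p = 0.333, so counts of members whose groups do not overlap are given without a test. The fit was also run on simulated counts whose spread was the same in all libraries and smaller than that of the control pair (coefficient of variation 0.39). That run does not show how the fit performs at the spread of these data.

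The members and lists were chosen with earlier results of these data known. Per-library values are given for the 6 members per role with the smallest edgeR p, the 2 with the highest mean CPM and those with a negative fold change; other values were picked to account for every member. Shared windows are 50-base stretches of GENCODE 29 transcripts found, on either strand, in another gene. Promoters are from RefSeq on GRCh38.p14. Same-numbered libraries were not treated as pairs. Figures were drawn with matplotlib 3.10.9.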

Additional observations from a re-analysis of the deposited data

How the results depend on the processing

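The direction of the members as a group did not depend on scaling, filter or tool. The number called stayed at 0 in edgeR under the other scalings and filters, and was 0 by limma too. It changed with DESeq2, with the block and with a control left out. Called members numbered 15 by DESeq2 and 14 when the replicate number entered as a block, higher in every case, against 0 in edgeR. The block called 1.23% of all tested genes higher and 0.956% lower. With one library left out at a time, members called by edgeR ranged from 0 to 34, highest without control replicate 2. There edgeR also called 18% of all tested genes higher and 16.6% lower. Without control replicate 1 it called 27.9% of all tested genes higher and 28% lower. Members with an unadjusted p under 0.05 ranged from 14 to 36, against 23, and the share over all genes was not computed for that range. DESeq2 calls, with a single control left out (chosen after seeing the data), were 28, all higher, without control replicate 2 (9.43% of all tested genes higher, 9.62% lower), and 27, of which 23 higher and 4 lower, without control replicate 1 (18.9% higher, 20.6% lower). With library totals in place of TMM scaling, 33 members did not overlap, against 30, and the share over all genes was not computed there. Library totals drop TMM factors of 1.05 and 1.03 in knockdown, against 1.01 and 0.915 in control. That raises every gene in knockdown relative to control. The replicate numbers share no stated batch, and the deviations of same-numbered libraries correlated at −0.03, so the block is no pairing. The median log2 fold change of all members (1.06) was 1.20 by limma and 1.20 under the block, and 1.06 to 1.32 with one library left out. For sensors (0.98) it was 1.15 without a filter, 1.34 with OAS1, OAS2, OAS3, EIF2AK2 and ADAR moved to the effectors, and 1.00 to 1.37 with one library left out. For signalling members (1.03) it was 1.12 with library totals, 1.07 by limma and 0.70 to 1.19 with one library left out. ZNF217 had a log2 fold change of −1.03 by DESeq2 (adjusted p = 0.00911), and −1.13 to −0.89 with one library left out.

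Signs changed only among the 11 members whose libraries overlap. With median-of-ratios factors and by DESeq2, IFITM2 was at −0.0058 and −0.0058 and PML at −0.018 and −0.018, and without a filter PML was at −0.0082. With one library left out, log2 fold changes ranged from −0.18 to 1.07 for ISG15, from −0.57 to 1.18 for ISG20, from −0.16 to 3.29 for BST2, from −0.12 to 0.32 for PARP12, from −2.40 to 1.07 for IFITM1, from −0.40 to 0.57 for IFITM2, from −0.18 to 1.12 for IFITM3, from −0.13 to 0.25 for ADAR, from −0.68 to 0.49 for IRF7, from −0.32 to 0.037 for IRF9 and from −0.16 to 0.17 for PML. The cause was not tested. Depth limits OAS2, IFI27 and XAF1, which were not tested.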

Other observations

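Several members lie beside each other in the genome, so neighbours within 100 kb (GENCODE 29, GRCh38) were set side by side after their values were seen. HERC6 had a log2 fold change of 1.89 with a standard error of 0.24, against 0.60 with 0.37 for HERC5, 14006 bases away on the same strand. Against control replicate 1 alone these were 1.71 and 1.21, and against control replicate 2 alone 2.08 and 0.16. SAMD9L had 2.36 with 0.52, against 0.85 with 0.31 for SAMD9, 12032 bases away. OAS1 had 3.26 with 0.48, against 0.98 with 0.32 for OAS3, 5130 bases away, while OAS2 in the same cluster had too few counts. PARP9 had 1.92 with 0.31, against 1.03 with 0.32 for DTX3L, which runs from the opposite strand and overlaps it at the start. The overlap could share reads where strand was not counted, and 1.31% of PARP9 windows occur in DTX3L and 2.03% of DTX3L windows in PARP9. CMPK2 and RSAD2, which overlap at their starts on chromosome 2, had 1.44 with 0.58 and 1.31 with 0.46. GBP1 and GBP2, 40772 bases apart on chromosome 1, had 3.45 with 1.17 and 2.63 with 0.84. MX2 and MX1, 10914 bases apart on chromosome 21, had 1.32 with 0.81 and 1.72 with 0.52. IFI44L, at least 8.18-fold higher, lies 3651 bases from IFI44, which was 2.54-fold higher. The genes of each of these pairs lay higher in both knockdown libraries, beside 25.4% of all tested genes. IFI44L and CMPK2 had to, since they passed the low-count filter through the knockdown libraries alone. IFITM1, IFITM2 and IFITM3 on chromosome 11 overlapped between the groups in CPM. The differences between neighbours were not tested.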
